A study of Homo sapiens with 3 samples.

Results

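ATF3, GDF15, ATF4, DDIT3, DDIT4, TRIB3, CHAC1, ASNS and PPP1R15A are 9 of the 18615 named genes that were read on 3 2-colour expression arrays of a drug-treated human colon cancer line. They were followed through all their 12 probes on all 3 arrays. ATF3 and GDF15 were chosen by their log2 changes on these same arrays, and the others as genes of the integrated stress response, with results of the arrays known. The changes of the 9 genes are therefore given as a description, without a test.

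The integrated stress response is the programme by which a cell lowers general protein synthesis and switches on repair genes. Kinases that sense haem loss, viral RNA, unfolded protein in the endoplasmic reticulum (ER) or missing amino acids phosphorylate the initiation factor eIF2. General translation then slows while the messenger RNA of the transcription factor ATF4 is translated more efficiently. ATF4 and its partner DDIT3 (CHOP) switch on genes for amino acid synthesis and transport, further regulators such as ATF3, and the feedback genes TRIB3 and PPP1R15A (GADD34), which damp the response. GDF15, a secreted cytokine that signals through the receptor GFRAL in the hindbrain, is raised by many kinds of cell stress. ATF3 and GDF15 are also known to respond to DNA damage and to p53.

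YB5 cells were used throughout. They were grown as 1 clone from SW48, a line of human colon cancer, and hold 1 copy of a GFP gene whose CMV promoter is methylated and silent. On each array the RNA of cells given the solvent DMSO was labelled with Cy5 (red) and the RNA of treated cells with Cy3 (green), and dyes were not swapped. By the labels the treatments were 25 nM decitabine, an inhibitor of DNA methylation, 20 µM carboplatin, a platinum compound that crosslinks DNA, and both drugs at these doses. The drugs were given in 4 doses on days 1 to 4 and cells were harvested on day 6. All cultures therefore shared 1 clone, and each treatment was read on 1 array, so nothing measures the spread between cultures of 1 treatment.

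The arrays are named here by their labels, and the array of cells given both drugs is called the combination array. Other values leave the labels of the single-drug arrays unsettled. The study's list of genes raised by carboplatin names 146 genes, of which 92 were read outside columns 1 to 9. The others are left out of this count. Of the 92, 54 rose at least 1.5-fold on the decitabine-labelled array, 15 on the carboplatin-labelled array and 52 on the combination array. Of 53 named there as lowered, 39, 4 and 37 fell at least 1.5-fold in the same order. DDIT4 and PPP1R15A, described below, are among the genes that the study names as raised by carboplatin. Their log2 changes were 0.88 and 1.00 on the decitabine-labelled array, and 0.26 and 0.02 on the carboplatin-labelled array. Each value below thus belongs to an array, and which drug alone gave it was not settled.

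The arrays held 43376 gene spots each, and 68.2 to 70.3 % of them were well above background in the control channel. Median signals were 282 to 315 units in the control channels and 163 to 167 in the treated channels. A log2 change is that of treated over control after background correction and loess normalization, and a gene is represented by its brightest probe. The spots of columns 1 to 9, 10.1 % of all, had a median log2 change of 0.75 on the decitabine-labelled array against −0.02 in its other columns, and values from them are given apart. Probes spotted 10 times, 264 of them, had a pooled SD of 0.0786, 0.0736 and 0.0757 log2 units outside those columns on the decitabine-labelled, carboplatin-labelled and combination arrays. The 3 control channels, compared probe by probe, differed by up to 0.26 log2 units for 95 % of probes. The 2 probes of a gene differed in their change by up to 0.67 for 95 % of 3328 genes. These genes had 2 probes outside columns 1 to 9 that were well above background in all channels. Of 12 epithelial colon markers 8 were well above background in all 3 control channels, while CDX1 and GPA33 were in none. Of 9 markers of blood, endothelial and mesenchymal cells, 4 were above background in no control channel and the log2 levels of all 9 lay between 6.08 and 8.82. Among the markers ACTA2, a smooth muscle actin, rose with log2 changes of 2.12, 0.91 and 2.11, while COL1A1 gave −0.40, 0.29 and −0.29, and VIM −0.36, −0.34 and −0.22. CDH1, the epithelial cadherin, gave −0.89, 0.04 and −0.85, whereas the epithelial keratin KRT18 gave 0.83, 0.50 and 1.14. VIL1, another epithelial marker, gave −0.88, 1.87 and 0.19. Of 11 epithelial markers outside columns 1 to 9, 2 rose and 3 fell at least 1.5-fold on the decitabine-labelled array. On the carboplatin-labelled array 2 rose and 0 fell, and with both drugs 3 rose and 2 fell. The shares of all genes were 5.12 and 4.9 %, 2.73 and 1.41 %, and 7.39 and 5.82 %. The part of the marker genes in the results was not tested.

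The probes of ATF3, ATF4 and PPP1R15A that lie in coding sequence show what was hybridised for these transcription factors and the feedback gene. Each is a 60-base stretch of the sense strand as the array design gives it. The ATF3 probe lies on the plus strand at chr1:212792837-212792896 and the ATF4 probe on the plus strand at chr22:39917875-39917934 (GRCh37). The PPP1R15A probe covers 775 bases of the plus strand of chromosome 19, 49378127 to 49378901, so that it bridges exons.
ATF3 probe: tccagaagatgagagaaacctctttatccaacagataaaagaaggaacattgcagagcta
ATF4 probe: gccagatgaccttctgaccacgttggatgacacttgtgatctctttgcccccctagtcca
PPP1R15A probe: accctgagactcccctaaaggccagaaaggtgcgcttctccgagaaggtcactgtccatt

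Promoters of the 9 genes were read from RefSeq (GRCh38.p14) as 15 windows from 250 bases before to 50 after a listed start. They were searched on both strands for the core of the C/EBP-ATF response element, TGATGNAA, to which ATF4 with a C/EBP partner binds. It stood in windows of 3 genes, ATF3, CHAC1 and ASNS, while 3.62 % of 35116 promoters of the same length held it. The cAMP response element TGACGTCA, which ATF and CREB factors bind, stood in the window of PPP1R15A and in 1.85 % of all promoters. Both are printed here in the 250 bases before the start, with the match in capitals. The ATF3 stretch is chr1:212565157-212565406 on the plus strand, at 1 of 2 starts listed, and its match runs from −191 to −184, counted back from that start. The CHAC1 stretch is chr15:40953221-40953470 on the plus strand, with the match on the opposite strand. The ASNS stretch is chr7:97872409-97872658 on the minus strand, with the match from −68 to −61, and the PPP1R15A stretch is chr19:48872171-48872420 on the plus strand, with the match from −58 to −51.
ATF3 promoter: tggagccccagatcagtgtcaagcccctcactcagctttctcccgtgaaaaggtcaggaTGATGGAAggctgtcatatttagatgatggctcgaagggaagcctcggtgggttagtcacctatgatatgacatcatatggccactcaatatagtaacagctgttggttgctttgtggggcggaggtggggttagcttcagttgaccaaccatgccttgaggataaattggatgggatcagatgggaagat
CHAC1 promoter: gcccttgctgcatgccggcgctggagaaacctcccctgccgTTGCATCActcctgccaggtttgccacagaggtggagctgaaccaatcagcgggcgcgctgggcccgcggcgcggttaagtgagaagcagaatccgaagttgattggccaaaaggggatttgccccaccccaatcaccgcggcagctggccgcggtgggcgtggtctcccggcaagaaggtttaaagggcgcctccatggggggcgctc
ASNS promoter: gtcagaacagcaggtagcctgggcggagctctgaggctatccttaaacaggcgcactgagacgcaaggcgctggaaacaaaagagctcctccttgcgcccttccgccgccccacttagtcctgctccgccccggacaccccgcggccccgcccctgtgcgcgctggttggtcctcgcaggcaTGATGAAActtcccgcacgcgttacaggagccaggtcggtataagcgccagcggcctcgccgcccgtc
PPP1R15A promoter: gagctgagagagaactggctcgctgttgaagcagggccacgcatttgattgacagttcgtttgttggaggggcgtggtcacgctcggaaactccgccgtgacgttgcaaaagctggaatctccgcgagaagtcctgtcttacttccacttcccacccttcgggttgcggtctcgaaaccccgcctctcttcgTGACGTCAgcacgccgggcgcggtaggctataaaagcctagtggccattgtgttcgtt

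The AP-1 site TGANTCA, bound by FOS and JUN factors, was found in the windows of DDIT3 only, at both of its listed starts, and in 7.71 % of all promoters. The ER stress element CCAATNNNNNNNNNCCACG and the p53 half-site, found in 0.0769 % and 6.63 % of all promoters, were in no window of the 9 genes. A match is a stretch of letters and does not show binding, and GDF15, ATF4, DDIT4 and TRIB3 had none of the motifs in their windows.

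Among the 9 genes, 4 on the decitabine-labelled array, ATF3, GDF15, PPP1R15A and DDIT4, rose at least 1.5-fold, as did 10.6 % of all genes, and 1, ASNS, fell, as did 4.67 % of all genes. On the carboplatin-labelled array GDF15 alone rose and none fell, against 2.76 and 1.49 % of all genes. With both drugs ATF3, GDF15 and DDIT4 rose, against 7.47 % of all genes, and ASNS and CHAC1 fell, against 5.93 %. With columns 1 to 9 left out, where CHAC1 has its only probe, the counts over the other 8 genes were 4 up and 1 down, 1 up and 0 down, and 3 up and 1 down. The shares of all genes were then 5.12 % up and 4.9 % down on the decitabine-labelled array, 2.73 and 1.41 % on the carboplatin-labelled array, and 7.39 and 5.82 % with both drugs. The large rises of ATF3 and GDF15 thus stood beside values near 0 for ATF4, DDIT3 and TRIB3 and a fall of ASNS. Where arrays were centred on their median in place of loess, which moved the median of all genes to −0.13, −0.16 and −0.10, PPP1R15A and DDIT4 no longer passed, and ATF4 and ASNS fell on the carboplatin-labelled array. Under that setting many more genes passed downwards: outside columns 1 to 9, 2.98 % of all genes were up and 26.5 % down on the decitabine-labelled array, 9 and 18.6 % on the carboplatin-labelled array, and 4.32 and 21.6 % with both drugs.

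**Figure D1:**
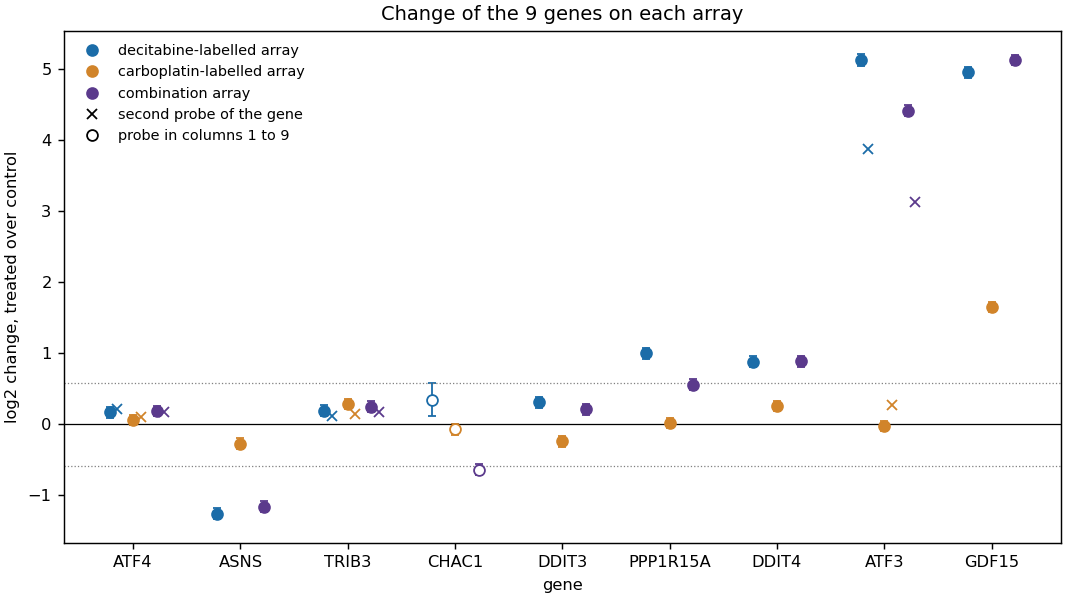
Log2 change of treated over control (vertical axis) for each of the 9 genes on the 3 arrays. Circles are the probe that represents a gene, with bars of 1 SD of repeated spots on that array; crosses are second probes, the open circle is a probe in columns 1 to 9, and dotted lines mark a ratio of 1.5. ATF3 and GDF15 lie above 4 on the decitabine-labelled array and the combination array, and ASNS lies below −1 on both.

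ATF4, the factor whose translation the pathway controls, gave values near 0 under loess. Its representing probe (chromosome 22, 39918577 to 39918636, GRCh37) gave treated and control signals of 47500 and 107000 on the decitabine-labelled array, 39600 and 103000 on the carboplatin-labelled array, and 42800 and 89100 with both drugs. After normalization, which also evens out the dyes, the log2 changes were 0.17, 0.06 and 0.19. The second probe of ATF4, 702 bases upstream in the gene and shown above, gave 0.21, 0.10 and 0.17, within 0.04 of the other on each array. In the channel levels the treated sample lay above all 3 controls on the decitabine-labelled array and with both drugs, by less than the smallest change counted here, and within them on the carboplatin-labelled array. Under median centring the values turned to −0.53, −0.62 and −0.49, so the direction of ATF4 depends on the scaling.

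DDIT3, or CHOP, a C/EBP-family factor that is made late in sustained ER stress, gave values of either sign. Treated and control signals were 670 and 1170 on the decitabine-labelled array, 378 and 966 on the carboplatin-labelled array, and 569 and 940 with both drugs. This gave log2 changes of 0.31, −0.24 and 0.21. Its treated level was above all 3 controls on 2 arrays and below them on the carboplatin-labelled array, and its controls themselves spread over 0.29 log2 units. Median centring gave −0.15, −0.56 and −0.14. The difference between the decitabine-labelled and carboplatin-labelled arrays was 0.54, where a gene-specific dye preference cancels and the SD of repeated spots for such a difference was 0.108.

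ATF3, a bZIP factor that the response and other stresses switch on quickly, had the largest rise of all genes on the decitabine-labelled array. Its brightest probe (chromosome 1, 212793856 to 212793915, GRCh37) gave a treated signal of 22800 against a control signal of 1480 on that array. On the carboplatin-labelled array the signals were 612 and 1390, and with both drugs 12900 and 1250. The log2 changes were 5.13, −0.02 and 4.42, or 35-fold and 21.4-fold up on the decitabine-labelled and combination arrays. The 3 control levels lay within 0.09 log2 units of each other, so the 3 treated levels of 15.03, 9.81 and 14.23 separate into 2 high values and 1 at the level of the controls.

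The second ATF3 probe, the coding one shown above, was much dimmer and moved in the same order. Its signals were 920 and 126 on the decitabine-labelled array, 78.7 and 101 on the carboplatin-labelled array, and 578 and 107 with both drugs. For this probe the log2 changes were 3.88, 0.27 and 3.13, so the rises on the first array and the combination array were 14.7-fold and 8.74-fold. The control of this probe was not well above background on the carboplatin-labelled array. Its ratio there, 1.2-fold up, was thus read close to background, and the brighter probe gave a log2 change of −0.02. The 2 probes thus differed by 1.25 and 1.29 log2 units where ATF3 rose. Among 3328 genes with 2 probes well above background in all channels, 95 % differed by less than that. ATF3 is not among those genes, because of its dim second probe.

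GDF15 rose on all 3 arrays. Its probe (chromosome 19, 18499890 to 18499949, GRCh37) gave treated and control signals of 154000 and 12200 on the decitabine-labelled array, 15100 and 11900 on the carboplatin-labelled array, and 166000 and 11000 with both drugs. GDF15 thus had log2 changes of 4.96, 1.65 and 5.13, that is 31.1-fold, 3.14-fold and 35.1-fold. It ranked 2 of all genes on the decitabine-labelled array, 39 on the carboplatin-labelled array and 2 with both drugs. Its control levels lay between 12.86 and 12.89, and the treated levels of 17.84, 14.51 and 18.02 were all above them, none of the spots being saturated. The genes of its receptor, GFRAL and its partner RET, were not well above background in any channel, and their values lay between −0.02 and 0.11 log2 units.

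**Figure D2:**
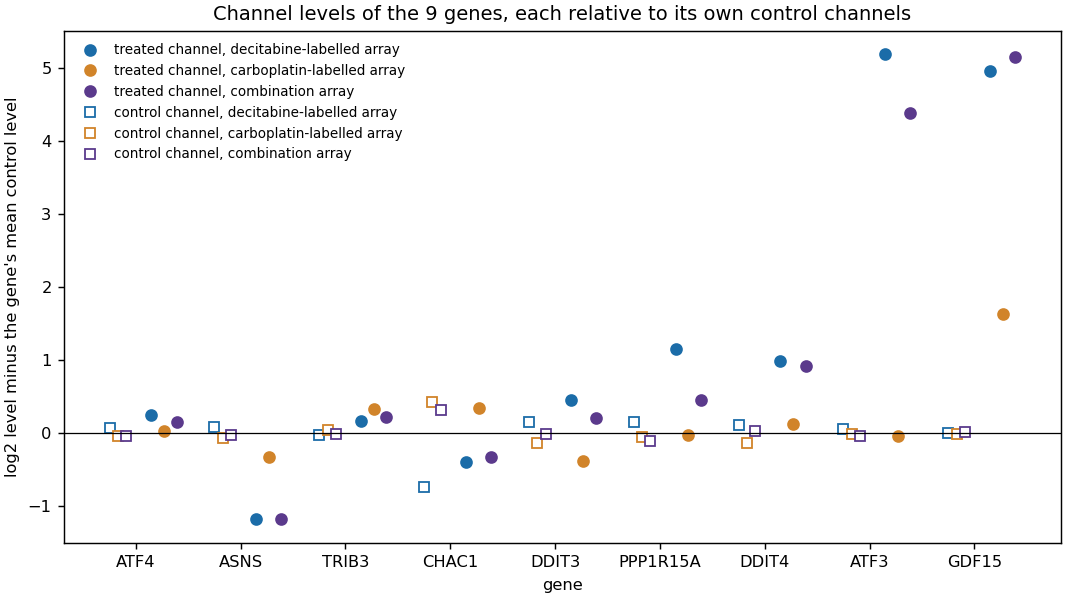
Log2 level of each channel minus the mean of the gene's own 3 control channels, for the representing probe of each gene. Open squares are the control channels and filled circles the treated channels, coloured by array. The controls of ATF3 and GDF15 coincide, whereas those of CHAC1 spread over 1.17 log2 units.

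Of the feedback genes, PPP1R15A passed a ratio of 1.5 on 1 array and TRIB3 on none. PPP1R15A brings a phosphatase to eIF2 and so restores translation. It gave treated and control signals of 1390 and 1540 on the decitabine-labelled array, 600 and 1330 on the carboplatin-labelled array, and 868 and 1150 with both drugs. Its log2 changes were 1.00, 0.02 and 0.56. That is a 2-fold rise on the decitabine-labelled array, a level within the controls on the carboplatin-labelled array, and 1.48-fold up with both drugs, just short of the ratio of 1.5. It passed there, at 0.60, with the software's processed signals and with a normexp offset of 0. Under median centring the values were 0.50, −0.36 and 0.18. The value with both drugs was 0.43 log2 units below that on the decitabine-labelled array, with an SD of repeated spots of 0.109 for such a difference.

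TRIB3, a pseudokinase that binds ATF4 and limits its activity, had log2 changes of 0.19, 0.29 and 0.25. Its signals were 7240 and 14700 on the decitabine-labelled array, 7850 and 15800 on the carboplatin-labelled array, and 7460 and 13200 with both drugs. The second probe, dimmer and in coding sequence, gave 0.12, 0.15 and 0.17. All 6 values were above 0 and under the ratio of 1.5, and the treated levels of the brighter probe, 13.39 to 13.56, lay just above its controls of 13.20 to 13.27. Under median centring the log2 changes were −0.39, −0.24 and −0.25, of the opposite sign.

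ASNS, asparagine synthetase, a standard target of ATF4, was the 1 gene of the group that fell on both arrays where ATF3 rose. Its probe (chromosome 7, 97481461 to 97481520, minus strand, GRCh37) gave treated and control signals of 7870 and 44700 on the decitabine-labelled array, 13600 and 42000 on the carboplatin-labelled array, and 7730 and 37500 with both drugs. This amounts to log2 changes of −1.26, −0.27 and −1.16, which is 2.4-fold, 1.2-fold and 2.23-fold lower. The treated levels were below all 3 control levels of 14.65 to 14.80 on every array. Median centring gave −1.87, −0.86 and −1.71, so that ASNS passed on all 3 arrays. ASNS ranked 84 from the bottom on the decitabine-labelled array and 155 with both drugs.

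DDIT4, or REDD1, which restrains the growth kinase mTORC1, rose on the arrays where ATF3 did. Its signals were 4900 and 6090 on the decitabine-labelled array, 2580 and 5140 on the carboplatin-labelled array, and 4620 and 5130 with both drugs. The log2 changes were 0.88, 0.26 and 0.89, or 1.84-fold, 1.2-fold and 1.85-fold up. The treated level was above all 3 controls on each array, although on the carboplatin-labelled array, at 11.94, it exceeded the highest control, 11.93, by almost nothing. Median centring gave 0.32, −0.22 and 0.42, under the ratio of 1.5. DDIT4 is also known to be induced by p53 and by low oxygen.

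CHAC1, which breaks down glutathione and is switched on by ATF4 through ATF3 and CHOP, was read by 1 probe, in column 6. Treated and control signals were 541 and 880 on the decitabine-labelled array, 858 and 2080 on the carboplatin-labelled array, and 555 and 1670 with both drugs. CHAC1 had log2 changes of 0.35, −0.07 and −0.64. On the decitabine-labelled array the control level was 9.22, against 10.39 and 10.28 on the other arrays, and the change of 0.35 was lower than the median of 0.74 over the 4093 probes of the same columns. With both drugs the fall was 1.56-fold, and 3.2 % of the probes in columns 1 to 9 were lower. On the decitabine-labelled array the scanner software's processed signals and log ratio gave −0.58 and −0.60, of the opposite sign. The authors' deposited ratios had −0.50, 0.33 and −0.36, so the sign differs on the single-drug arrays and CHAC1 has no settled direction there.

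Because every array carries the dyes in the same orientation, a dye preference of a gene enters each of its changes alike. It cancels in the difference between arrays. The change on the decitabine-labelled array exceeded that on the carboplatin-labelled array by 5.15 log2 units for ATF3, 3.31 for GDF15, 0.98 for PPP1R15A, 0.62 for DDIT4 and 0.54 for DDIT3. It was lower by 0.99 for ASNS. For ATF4 the difference was 0.11 and for TRIB3 −0.10, which is about the SD of 0.108 for repeated spots. The combination array was close to the decitabine-labelled array for most of the genes, with differences of 0.17 for GDF15, 0.10 for ASNS, 0.01 for DDIT4, 0.02 for ATF4 and 0.06 for TRIB3, and larger ones of −0.71 for ATF3 and −0.43 for PPP1R15A. CHAC1, read in columns 1 to 9, differed by −0.99. These comparisons were each made between single arrays and do not measure variation between cultures.

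The combination was also set beside the sum of the log2 changes on both single-drug arrays, the value that independent multiplicative changes would give. GDF15 with both drugs was 5.13, below a sum of 6.61, a difference of −1.48. For ATF3 the sum was 5.11 and the difference −0.69, for PPP1R15A the difference was −0.45, for DDIT4 −0.25 and for TRIB3 −0.23. ASNS, whose changes were negative, lay 0.37 above its sum of −1.53, so its fall was also smaller than the sum. ATF4 and DDIT3 differed from their sums by −0.04 and 0.14. The SD of repeated spots for this difference was 0.132, and over all genes outside columns 1 to 9 its median was 0.01 with 95 % of genes within 0.52. A dye preference does not cancel here, since it is counted once in the combination and once in each term of the sum.

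**Figure D3:**
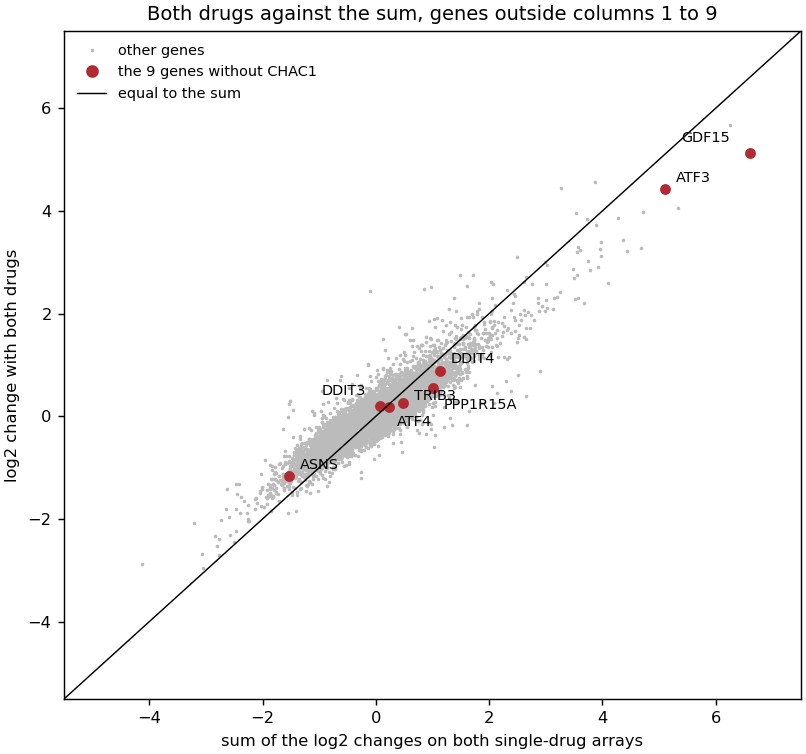
Log2 change with both drugs on the vertical axis and the summed log2 changes of both single-drug arrays on the horizontal axis, with grey points for genes outside columns 1 to 9 and red points for the genes described, CHAC1 left out. GDF15 and ATF3 lie below the line of equality, and ASNS lies above it.

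The wider pathway was read through lists of genes, set beside the same shares of all genes as above, those under median centring included. Of 14 genes of eIF2 signalling outside columns 1 to 9, which include the eIF2 kinases and subunits, none rose on the decitabine-labelled array and 1 fell. None passed on the carboplatin-labelled array, and 1 rose with both drugs. Under median centring 0 were up on any array and 3, 7 and 2 of 14 were down, beside 26.5, 18.6 and 21.6 % of all genes down. Under loess the list medians were 0.21, −0.12 and 0.13, against medians of 0, 0 and 0.01 over all genes. The kinase EIF2AK1, which senses haem, gave −0.68, −0.18 and −0.57, and EIF2AK4 (GCN2), which senses uncharged tRNA, by 0.52, −0.20 and 0.68. PPP1CA, a catalytic subunit of the phosphatase that PPP1R15A recruits, gave −0.10, 0.46 and −0.03.

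Genes of amino acid supply, among them transporters and synthesis enzymes that ATF4 can switch on, had medians of −0.08, −0.01 and −0.08, and of −0.69, −0.43 and −0.46 under median centring. Of 19, 1 rose and 2 fell on the decitabine-labelled array, 2 rose on the carboplatin-labelled array, and 2 rose and 1 fell with both drugs. Median centring gave 2 up and 12 down, 3 up and 5 down, and 1 up and 8 down. SLC7A11, the cystine transporter, gave −0.66, −0.37 and −0.73, and SLC7A5, a transporter of large neutral amino acids, by −0.26, 0.39 and 0.66. CBS, which makes cystathionine, gave 2.09, 1.59 and 2.21, but the authors' deposited ratio of the same probe on the carboplatin-labelled array was −0.78, so its direction there is not settled. CBS also has a near-identical copy, CBSL, and whether the probe tells them apart was not tested.

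The list of tRNA synthetases, also a class that ATF4 supports, held 12 synthetases and XPOT, which exports tRNA from the nucleus. Outside columns 1 to 9, 0 of these 13 genes were up on any array, and 1 was down on the carboplatin-labelled array. Their medians were 0, 0 and −0.04. Under median centring, without XPOT, they were −0.58, −0.50 and −0.50 with 6, 3 and 4 of 12 genes down, beside 26.5, 18.6 and 21.6 % of all genes. The gene that fell was IARS1, for isoleucine, at −0.01, −0.69 and −0.09, while GARS1 gave −0.27, −0.12 and −0.40 and EPRS1 by 0.32, 0.06 and 0.39.

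Among 12 other stress regulators, 1 rose and 1 fell on the decitabine-labelled array, 1 rose on the carboplatin-labelled array, and 2 rose and 1 fell with both drugs. Of these 12, 5 were not well above background in any channel: VLDLR, STC2, FGF21, INHBE and ADM2. Median centring gave 1 up and 3 down, 2 up and 2 down, and 2 up and 2 down. SESN2, a leucine sensor that p53 and ATF4 both induce, gave 1.34, 0.37 and 1.25. JDP2, a bZIP repressor closely related to ATF3, gave −0.98, −0.10 and −0.84. NUPR1, a small stress-induced chromatin protein, gave −0.36, 0.38 and 0.91.

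The list of ER chaperones and genes of the unfolded protein response held 17 genes outside columns 1 to 9. There 1 rose and 1 fell on the decitabine-labelled array, 1 fell on the carboplatin-labelled array, and 4 rose and 1 fell with both drugs, with medians of 0.06, 0.09 and 0.17. Median centring put the medians at −0.50, −0.36 and −0.25 over 16 genes, with 0 up on any array and 4, 5 and 2 down. With columns 1 to 9 kept, 5 of 20 rose on the decitabine-labelled array, and 4 of these 5, HSP90B1, PDIA6, MANF and HERPUD1, had their probes in those columns. PDIA4, a disulfide isomerase, gave 0.64, 0.44 and 0.86, and CRELD2, a secreted ER stress marker, by 0.06, 0.44 and 1.08. ATF6, a sensor of the unfolded protein response, gave −0.62, −0.97 and −0.78.

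The AP-1 genes and the p53 targets had higher medians than these lists on the arrays where ATF3 rose, under loess. Of 11 AP-1 and immediate early genes outside columns 1 to 9, among them JUN factors with which ATF3 can form dimers, 6 rose and 1 fell on the decitabine-labelled array, none passed on the carboplatin-labelled array, and 4 rose and 1 fell with both drugs. The medians were 0.62, −0.10 and 0.31, but under median centring those of 10 genes were −0.12, −0.68 and −0.44, with 2 up and 2 down, 0 up and 6 down, and 2 up and 5 down, beside the shares of all genes given for that setting. IER3, an early response gene that affects cell survival, gave 1.91, 0.54 and 1.88, FOSL1 by 1.69, −0.17 and 1.78, and FOSB by 1.15, −0.47 and 0.35. Of 21 established p53 targets outside columns 1 to 9, 20 rose on the decitabine-labelled array, 9 on the carboplatin-labelled array and 19 with both drugs, and none fell on any array. Their medians were 1.95, 0.51 and 1.84, and under median centring, over 20 genes, 1.42, 0.21 and 1.36. There 17, 2 and 18 of these 20 rose, where loess gave 19, 8 and 18 of the same 20. With the software's processed signals and with its log ratio, 19 of these 20 rose and 1 fell on the decitabine-labelled array. Among the 21, BBC3 was read by another probe than its brightest and gave 2.55, 0.69 and 2.11. Its brightest probe, in columns 1 to 9, gave −0.09, 0.24 and 0. ATF3, GDF15, DDIT4 and SESN2 are themselves known p53 targets, and the part of p53 in their changes was not tested.

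**Figure D4:**
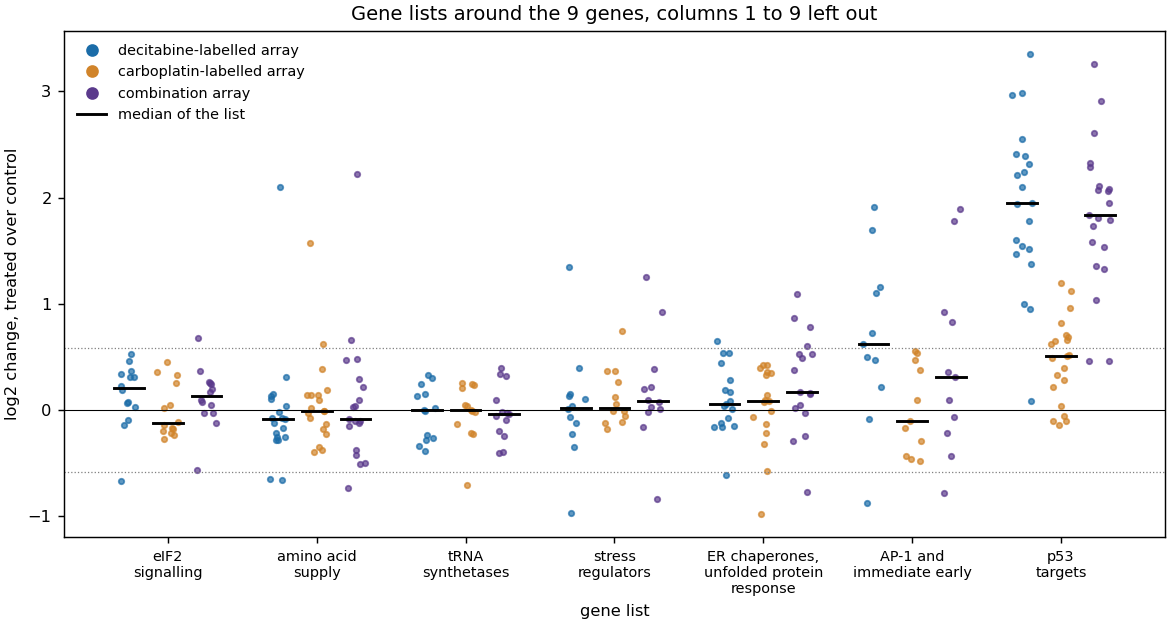
Log2 change (vertical axis) of the genes of 7 lists around the 9 genes, with columns 1 to 9 left out. Each point is a gene, coloured by array, the black bars are list medians and dotted lines mark a ratio of 1.5. The p53 targets have medians of 1.95, 0.51 and 1.84, while those of eIF2 signalling, amino acid supply, tRNA synthetases and stress regulators stay between −0.12 and 0.21.

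Genes with values nearest to those of ATF3 and GDF15 were found by the Euclidean distance between their 3 log2 changes. The search covered 12748 genes read outside columns 1 to 9 with a signal above background. This distance counts the size of a change as well as its direction, so genes of a like pattern but smaller changes lie further away. ATF3 and GDF15 were each the nearest to the other, 1.83 log2 units apart, most of which lies in the carboplatin-labelled array. Both were chosen by their changes on these arrays, so their nearness follows in part from that choice and is no separate finding. Next to ATF3 came SULF2 at 1.91, DQX1 at 1.96, LAMC3 at 2.08 and MDM2 at 2.23. Next to GDF15 came SULF2 at 1.84, LAMC3 at 2.17, DQX1 at 2.34 and ALDH3A1 at 2.46. SULF2, an extracellular sulfatase of heparan sulfate, gave 3.63, 1.08 and 3.99, and MDM2, the ubiquitin ligase of p53, by 3.34, 0.63 and 3.25. LAMC3, a laminin chain, gave 3.36, 0.91 and 3.87, and ALDH3A1, an aldehyde dehydrogenase, by 3.38, 1.31 and 3.28. DQX1 gave 3.62, 0.75 and 3.44. On the carboplatin-labelled array all of these genes lay between ATF3, at −0.02, and GDF15, at 1.65.

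**Figure D5:**
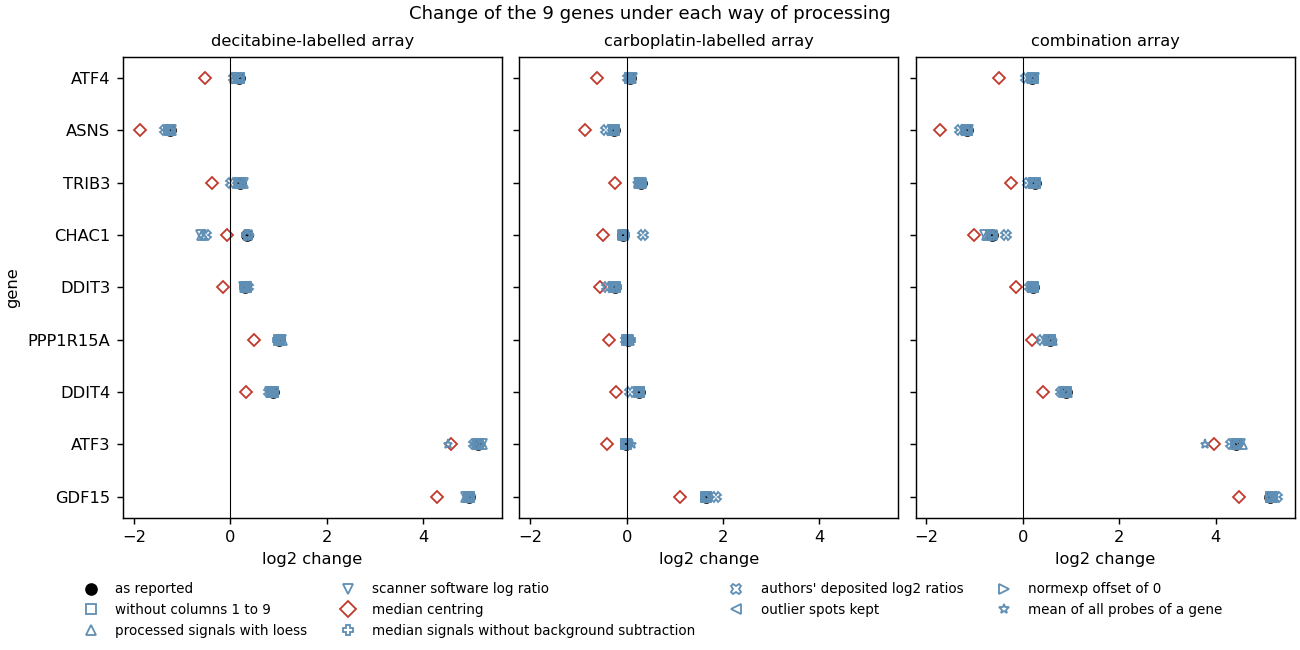
Log2 change of each gene (horizontal axis) on the 3 arrays under 10 ways of processing, with a black circle for the reported value and red diamonds for median centring in place of loess. Median centring lies to the left of every other setting for most genes, whereas ATF3 and GDF15 stay at 3.77 or above on the decitabine-labelled and combination arrays under every setting.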

How the data were processed

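Scanner files of 3 2-colour Agilent arrays were used. The deposited intensity values are mean and median signals and local backgrounds of each spot, written per the file headers by Feature Extraction 9.5.3.1 (the labels name 8.5.1.1). The deposited log10 ratio of that software (red over green, after its own background and dye correction) and the log2 ratios that the authors deposited in the value table, made per the labels with loess in limma under R 3.0.2, served as alternatives. The log2 ratios ran as treated over control, with r of 0.838 to 0.936 to the scanner values.

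Here mean signals were corrected with normexp (offset 50) against median local background, spots marked as outliers (276, 111 and 89) were left out, and loess was fitted within arrays (limma 3.58.1, R 4.3.3). Channel levels came from Aquantile. A gene was called at a ratio of at least 1.5. Of 41000 probes, 29381 had a gene name, 26386 of them by accession. With 1 array per treatment no p-value was computed, and the SDs of repeated spots cover the array only. No column of sample values was left unused (0 columns). The procedure was tested on simulated data.

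The 9 genes and all lists were chosen with earlier results of these data known. Named are the 9 genes, the 3 genes of each pathway list with the largest change on any array (well above background, outside columns 1 to 9; p53 targets and markers by counts and ranges), and the 5 nearest genes to ATF3 and to GDF15. Some single markers were also named, outside this rule. Probe positions are GRCh37 and promoters GRCh38.p14.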

Additional observations from a re-analysis of the deposited data

How the results depend on the processing

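Of 240 values of single genes under 9 alternatives, 190 moved by less than 1 SD of repeated spots and 50 by more. The SD used here was that over all columns. It was 0.23, 0.0751 and 0.0769 log2 units on the decitabine-labelled, carboplatin-labelled and combination arrays. On the decitabine-labelled array it was thus wider than the 0.0786 outside columns 1 to 9. No change called at a ratio of 1.5 in the reported processing turned its sign. CHAC1, not called on the decitabine-labelled array at 0.35, passed there as a fall, at −0.60, with the software's log ratio. ATF3 stayed between 4.51 and 5.23 on the decitabine-labelled array and between 3.77 and 4.54 with both drugs, GDF15 between 4.29 and 4.98 and between 4.49 and 5.28, and ASNS between −1.87 and −1.23 and between −1.71 and −1.14. Median centring in place of loess moved all 27 values downwards and the median of all genes to −0.13, −0.16 and −0.10. It left 2 of the 9 genes risen on the decitabine-labelled array in place of 4, put 2 as fallen on the carboplatin-labelled array in place of 0, and lowered the share of rises among all changed genes there from 64.9 to 32 %, on the decitabine-labelled array from 69.4 to 27.7 % and with both drugs from 55.8 to 16.8 %. Without columns 1 to 9 that share was 51.1 % on the decitabine-labelled array, with the scanner software's log ratio 49.8 %, with its processed signals 49.2 %, and with the authors' ratios 50.4 %. The software's log ratio put 2 genes as fallen on the decitabine-labelled array in place of 1, CHAC1 being the added one. With both drugs 1 gene in place of 2 had fallen without columns 1 to 9, where CHAC1 has its probe, under the authors' deposited ratios and at a ratio of at least 2. With both drugs 4 genes in place of 3 rose with the software's processed signals and with a normexp offset of 0, PPP1R15A being the gained one. That stricter ratio of 2 left 2 risen genes on the decitabine-labelled array. The gene lists under median centring were an alternative chosen after seeing the data. For these shifts the cause was not tested. No array could be left out, since each treatment has 1. No paired analysis was possible because no treatment has a second sample. Precision is limited by the number of arrays, and by dim signal for the second ATF3 probe.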

Other observations

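Relatives of the 9 genes, a list of 26 chosen after the values of the 9 were seen, gave a comparison by family. Of 21 read outside columns 1 to 9 and well above background in all 6 channels, 4 rose at least 1.5-fold and 2 fell on the decitabine-labelled array, 1 rose on the carboplatin-labelled array, and 2 rose and 3 fell with both drugs. Of all genes outside columns 1 to 9, 5.12 % rose and 4.9 % fell, 2.73 and 1.41 %, and 7.39 and 5.82 % on the same arrays. Among relatives of ATF3, ATF2 gave −0.88, −0.45 and −0.78 log2 units on the decitabine-labelled, carboplatin-labelled and combination arrays, CREB1 by −0.48, −0.28 and −0.69, and CREM by 0.11, −0.07 and −0.08. BATF3 gave 0.64, −0.01 and 0.39, so it rose on the decitabine-labelled array, where ATF3 stood at 5.13. ATF5, a relative of ATF4 that is also controlled at translation, gave 0.12, 0.75 and 0.20, the highest value lying on the carboplatin-labelled array.

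Of the TGF-beta superfamily, to which GDF15 belongs, INHBA, the activin A subunit, gave 1.00, 0.37 and 2.30, and BMP4, a bone morphogenetic protein, by 1.19, 0.43 and 1.26, while TGFB1 was at 0.04, −0.08 and 0.18. INHBA was the relative with the highest value of the 21. TRIB1, a pseudokinase like TRIB3, gave 0.90, −0.39 and 0.52, and PPP1R15B, the constitutive relative of PPP1R15A, gave 0.29, 0.06 and 0.10. Each value is from 1 array, and no difference between family members was tested.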
